A study of Homo sapiens with 2 samples.

Results

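The 5 stretches of chromosome 19 described here hold large clusters of KRAB zinc finger genes, though not all of them. Their members are the peaks of the TCF12 ChIP-seq table whose summit lies inside these stretches. The intervals (human build hg19) were 19p12 from 19.8 to 22.6 Mb, 19q13.12 from 36.7 to 38.4 Mb, 19q13.31 from 44.3 to 45.0 Mb, 19q13.41 to 19q13.42 from 52.3 to 55.0 Mb, and 19q13.42 to 19q13.43 from 56.0 to 58.9 Mb. They contained 432 of the 2262 listed peaks of chromosome 19 and of the 64251 peaks of the whole table, and the other 1830 peaks of chromosome 19 served for comparison. To find where TCF12 binds in Hep3B, a human hepatocellular carcinoma cell line, one ChIP library made with a TCF12 antibody was sequenced beside one input library of DNA that was not precipitated. The labels name no treatment of the cells. With 1 library on each side there was no replicate check, so no p-value compares the clusters with the rest, and every 95% interval given covers counting error only.

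Proteins of the KRAB zinc finger family carry arrays of C2H2 zinc fingers that read DNA sequence, and a KRAB domain that recruits the corepressor TRIM28 and, through it, enzymes that lay down repressive histone methylation. Many of them bind transposable elements, and their genes multiplied by tandem duplication, so that neighbouring genes often resemble each other closely. TCF12 is a basic helix-loop-helix E protein that binds E-box motifs as a dimer. In the RefSeq gene table (GRCh38.p14, used for names and gene order only), 262 of the 559 protein-coding genes with a ZNF, ZFP or ZSCAN symbol were on chromosome 19, where they made up 18.1% of the 1451 protein-coding genes. Of these, 212 stood in 19 unbroken runs of at least 5 such genes. The longest run, from ZNF737 to ZNF681, had 27 genes and included ZNF43, ZNF208 and ZNF91. The run from ZNF565 to ZNF793 had 24 genes, the run from ZNF283 to ZNF180 had 20, and the run from ZNF530 to ZNF256 had 16. By their usual bands these are the gene runs of 19p12, 19q13.12, 19q13.31 and 19q13.43. The rest of the chromosome was not free of the family. A run of 24 genes from ZNF627 to ZNF791 and one of 11 genes from ZNF699 to ZNF846 lie on the short arm before 19p12. So does a run of 5 genes from ZNF554 to ZNF77. The longest run ends beyond the 19p12 interval, with its last genes, ZNF91, ZNF675 and ZNF681, between that interval and the centromere. A run of 5 genes from ZNF302 to ZNF792 lies between the centromere and 19q13.12. The intervals in turn hold genes of other families, such as the LILR receptor genes of 19q13.42. With no genome or gene annotation of that build at hand, no peak was placed on a gene and no peak sequence is shown.

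Each peak in the table has a number of ChIP reads at its summit and an input background, which MACS takes as the highest of a genome-wide level of 0.763 reads, the input reads at the summit itself and the input level in windows of 1000 and 10000 bp around it. The fold enrichment is the scaled ChIP reads plus 1, divided by the background plus 1. The genome-wide level follows from the mouse genome size used in the peak call, and would be 0.528 reads with the human size. Peaks are split below at the level used, and the split could not be repeated at the lower one. The ChIP library had 10254561 usable tags and the input 8862145. At this depth the members rested on few reads, with a median of 5 at the summit, and 67.4% of them (interval 62.7 to 71.8%) had between 3 and 5 reads.

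As a whole, the clusters held listed peaks at the density of the rest of the chromosome. The 432 members in 10.8 Mb came to 40.0 peaks per Mb (interval 36.3 to 44.0), against 40.7 (38.9 to 42.6) over the other 45.0 Mb between the first and the last listed summit, from which the largest peak-free gap (3.23 Mb around the centromere) was left out. The ratio was 0.983, with an interval of 0.883 to 1.09. The same number hid a wide range among the clusters. The 19p12 interval held 56 peaks in 2.8 Mb, or 20.0 per Mb (15.1 to 26.0). The 19q13.12 interval held 57 peaks in 1.7 Mb, or 33.5 per Mb (25.4 to 43.4). Density was 40.0 per Mb (26.6 to 57.8) in 19q13.31, with 28 peaks in 0.7 Mb. In 19q13.41 to 19q13.42, 123 peaks in 2.7 Mb gave 45.6 per Mb (37.9 to 54.4). The end of the long arm, 19q13.42 to 19q13.43, was the densest, with 168 peaks in 2.9 Mb, or 57.9 per Mb (49.5 to 67.4). It held 2.90 times the density of 19p12 (2.13 to 3.99), while the density intervals of neighbours in this order overlapped. Only these outer 2 of the 5 had a ratio to the rest whose interval left out 1, at 0.491 (0.370 to 0.641) for 19p12 and 1.42 (1.21 to 1.67) for 19q13.42 to 19q13.43. The pooled ratio therefore rested on both, and was 1.15 without 19p12 and 0.821 without 19q13.42 to 19q13.43.

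**Figure D1:**
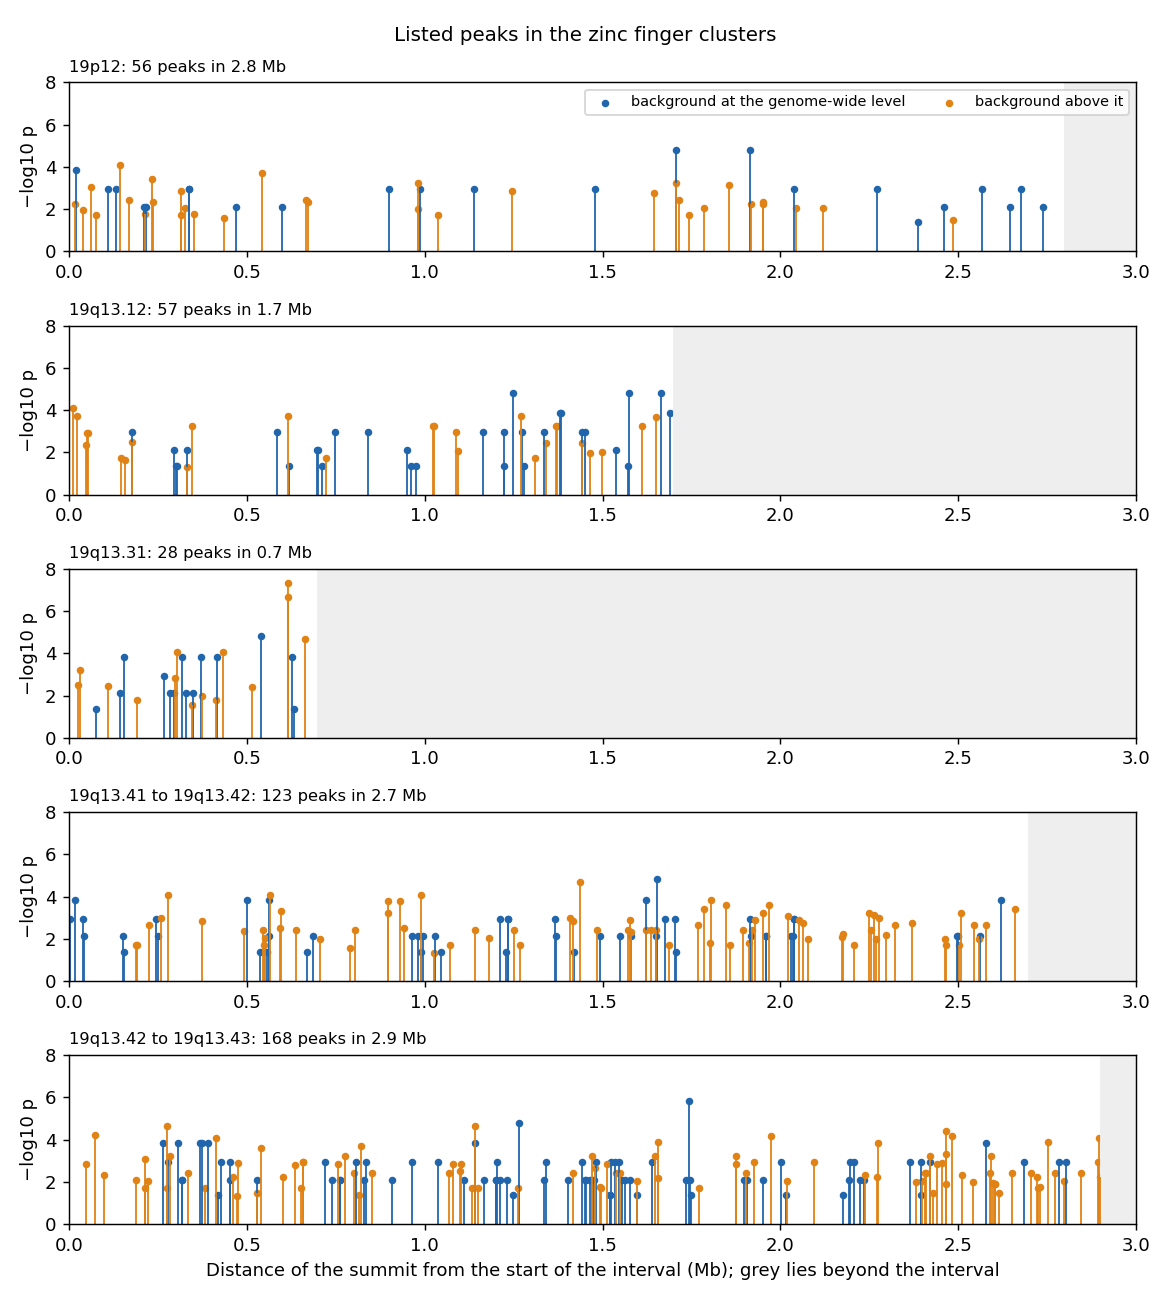
Each line is a listed peak, placed by the distance of its summit from the start of its interval in Mb (x axis), with the −log10 p of the table on the y axis. Blue marks a background at the genome-wide level, and orange one above it; the 56 peaks of 19p12 are sparse and the 168 peaks of 19q13.42 to 19q13.43 are dense.

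On a finer scale the spread within the clusters was as wide as in the rest. In windows of 100 kb, the median was 4 peaks in both, the highest count was 13 in both, and 5 of 108 windows in the clusters and 21 of 448 in the rest were empty. The 19p12 windows had a median of 1 peak, and 4 of its 28 were empty, while each of the 29 windows of 19q13.42 to 19q13.43 held at least 1 peak, with a median of 5. Windows of 1 Mb held 15 to 64 peaks in the 7 that fitted inside the clusters and 11 to 61 in the 41 of the rest. Cut at its midpoint, 19p12 was sparse on both sides, at 23.6 and 16.4 peaks per Mb.

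The longest stretches without a listed summit were 237023 bp in 19q13.12 (37046323 to 37283346) and 231948 bp in 19p12 (21046620 to 21278568). In the other clusters they were 116980 bp in 19q13.41 to 19q13.42 (52674381 to 52791361), 103574 bp in 19q13.42 to 19q13.43 (57771220 to 57874794) and 81750 bp in 19q13.31 (44731635 to 44813385). The densest 100 kb of all lay in 19q13.42 to 19q13.43, where 18 summits stood between 57465327 and 57564100, against at most 17 in any 100 kb of the rest. None of these 18 was strong. They had 3 to 6 reads, a −log10 p of at most 3.23, and 11 of them sat at the genome-wide background. The densest 100 kb of the other clusters held 7 peaks in 19p12 (19941765 to 20035587), 8 in 19q13.12 (37971159 to 38070440), 10 in 19q13.31 (44584730 to 44675005) and 11 in 19q13.41 to 19q13.42 (52800894 to 52896532).

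The clusters and the rest of the chromosome differed in the kind of peak that made up this density. Of the members, 239 (55.3%, interval 50.5 to 60.1%) had an input background above the genome-wide level, against 1380 (75.4%, 73.4 to 77.4%) of the other chromosome 19 peaks. Over all listed peaks of the genome the share was 51.8%. The clusters were thus near the share of the whole list, and the rest of chromosome 19 was above it. Counted per Mb, peaks at the genome-wide background were 1.79 times as dense in the clusters (17.9 against 10.0, interval of the ratio 1.50 to 2.12), and peaks above it were 0.721 times as dense (22.1 against 30.7, interval 0.626 to 0.828). The excess of the one kind and the deficit of the other left the totals nearly equal. Single windows of 1 Mb spread widely within both parts. Peaks at the genome-wide background numbered 4 to 38 (median 19) in the 7 windows of the clusters and 0 to 39 (median 8) in the 41 of the rest. Peaks above it numbered 11 to 29 (median 22) and 3 to 54 (median 32), so the rest covered the range of the clusters. Not every cluster shared both departures. Peaks at the genome-wide background were 1.81 to 2.62 times as dense as in the rest in the 4 clusters of the long arm, each with an interval above 1, but 0.821 times (0.515 to 1.25) in 19p12. Peaks above it were 0.384 times as dense (0.263 to 0.542) in 19p12 and 0.498 times (0.324 to 0.733) in 19q13.12, while the ratios of the other 3 clusters, from 0.652 to 1.03, had intervals that held 1.

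**Figure D2:**
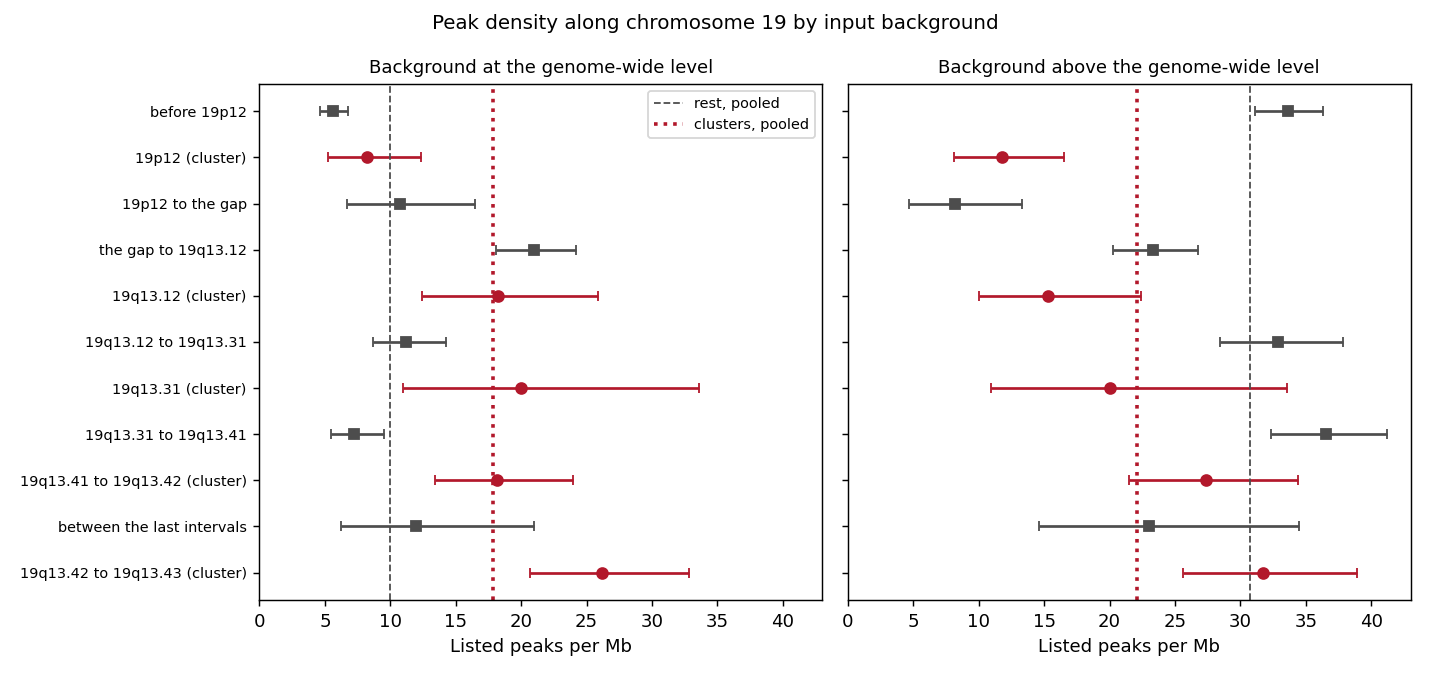
Listed peaks per Mb with an input background at the genome-wide level (left) and above it (right), in chromosomal order, for the 5 clusters (red circles) and the stretches between them (grey squares; the last 8 peaks, after 19q13.43, are left out). Bars are exact 95% Poisson intervals and vertical lines are the pooled densities of 17.9 and 22.1 per Mb in the clusters and 10.0 and 30.7 in the rest.

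The clusters and the rest also differed in the source of the background. Input reads at the summit set it for 108 members (25.0%) and for 397 of the other peaks (21.7%), or 10.0 and 8.83 per Mb (ratio 1.13, interval 0.907 to 1.40). That ratio joined parts that differed in opposite directions. Peaks with exactly 1 input read at the summit numbered 87 in the clusters and 215 in the rest, or 8.06 and 4.78 per Mb (ratio 1.68, interval 1.30 to 2.17). Peaks with 2 or more numbered 21 and 182, or 1.94 and 4.05 per Mb (ratio 0.480, interval 0.290 to 0.756). A wider window set it for 131 members (30.3%) and 983 of the other peaks (53.7%), at 12.1 and 21.9 per Mb (ratio 0.555, interval 0.459 to 0.666). Both a background of 2 or more input reads at the summit and one set by a wider window were thus less frequent per Mb in the clusters. The median background was 0.805 reads for the members, 1.05 for the other chromosome 19 peaks and 0.805 over the whole table.

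By cluster, the share above the genome-wide level was 58.9% (45.0 to 71.9%) in 19p12, 45.6% (32.4 to 59.3%) in 19q13.12, 50% (30.6 to 69.4%) in 19q13.31, 60.2% (50.9 to 68.9%) in 19q13.41 to 19q13.42 and 54.8% (46.9 to 62.4%) in 19q13.42 to 19q13.43. All 5 intervals overlapped. The stretches between the clusters ranged more widely. The short arm before 19p12 had the share of 85.7% (83.0 to 88.1%), the stretch from 19q13.31 to 19q13.41 one of 83.4% (78.9 to 87.3%), and that from 19q13.12 to 19q13.31 one of 74.6% (68.9 to 79.8%). The clusters were below these 3, although the intervals of 19p12, 19q13.31 and, by a margin under the digits shown, 19q13.41 to 19q13.42 overlapped that of the last. A low share was not particular to the chosen stretches of the chromosome. The stretch from 19p12 to the centromere had 43.2% (27.1 to 60.5%). It holds ZNF91 and the end of the longest zinc finger run, and so continues the 19p12 cluster. The stretch from the centromere to 19q13.12 had 52.7% (47.6 to 57.7%). It spans 8.92 Mb, and its run from ZNF302 to ZNF792 has only 5 genes. No peak was placed on that run, so the share of the stretch cannot be tied to it. The 1.0 Mb between the last 2 clusters had 65.7% (47.8 to 80.9%). The stretch from the centromere to 19q13.12 also carried 21.0 peaks per Mb (18.1 to 24.2) at the genome-wide background, against 17.9 (15.4 to 20.6) in the clusters. Leaving it out of the rest raised the ratio of such peaks from 1.79 to 2.45.

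**Figure D3:**
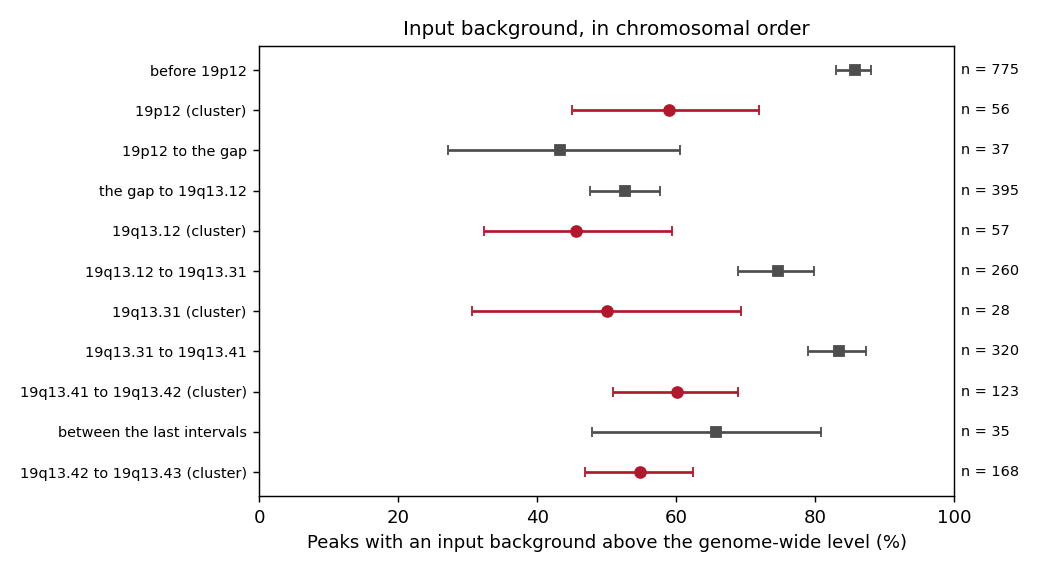
Percentage of listed peaks whose input background is above the genome-wide level, in chromosomal order, with exact 95% binomial intervals as bars and the number of peaks at the right. The 5 clusters (red circles) lie between 45.6 and 60.2%, and the stretches outside them that are shown (grey squares) between 43.2 and 85.7%. The last stretch, after 19q13.43, holds 8 peaks and is not drawn.

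Inside 19q13.41 to 19q13.42 the values differed along the interval. The stretch before its midpoint held 53 peaks, 52.8% of them (38.6 to 66.7%) above the genome-wide background, and the stretch after it 70 peaks, 65.7% (53.4 to 76.7%). Peaks above that level were at 20.7 and 34.1 per Mb, and peaks at it at 18.5 and 17.8 per Mb. The intervals of both shares overlapped. In the last cluster, peaks at the genome-wide background had a density of 26.2 per Mb on both sides of the midpoint, and those above it were at 26.2 and 37.2.

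Members with many reads were scarce beside the rest of chromosome 19 but not beside the whole table. At least 8 reads lay at the summit of 22 members (5.09%, interval 3.22 to 7.61%) and of 231 other chromosome 19 peaks (12.6%, 11.1 to 14.2%), against 5.73% over all listed peaks. Per Mb this was 2.04 against 5.14, a ratio of 0.396 (0.244 to 0.615). This shortage is not independent of the split by background, since under the p cutoff a higher background needs more reads for a peak to be listed. In the rest of the chromosome, the fewest reads of a listed peak were 3 at a background of 0.763, 6 at 2 and 10 at 4. Whether reads differ at an equal background was not tested. At the other end, 4 reads were found at 27.8% of the members and 19.1% of the other peaks. The stretch from the centromere to 19q13.12 was again like the clusters, with 3.80% of its peaks at 8 reads or more (2.14 to 6.19%), and the short arm before 19p12 was highest with 19.2% (16.5 to 22.2%). By cluster the counts were 3 in 19p12, 2 in 19q13.12, 3 in 19q13.31, 3 in 19q13.41 to 19q13.42 and 11 in 19q13.42 to 19q13.43.

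**Figure D4:**
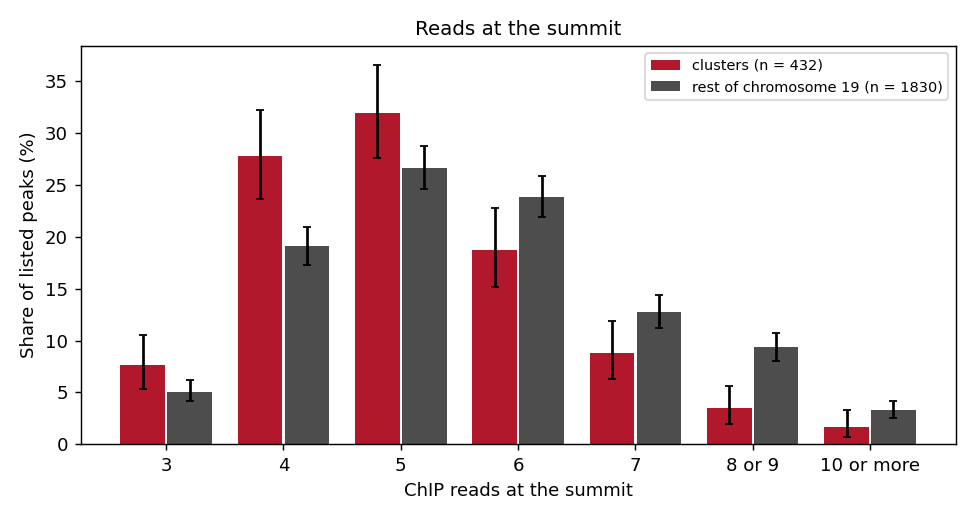
Share of listed peaks (y axis, %) by the number of ChIP reads at the summit (x axis) in the clusters (432 peaks, red) and the rest of chromosome 19 (1830 peaks, grey), with exact 95% binomial intervals. The clusters have more of their peaks at 4 reads (27.8 against 19.1%) and fewer at 8 or more.

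Strength relative to the background was close in its medians, while a fold enrichment of at least 3 was more frequent in the clusters. The median −log10 p was 2.44 for the members and 2.42 for the other chromosome 19 peaks, with quartiles of 2.11 and 2.94 against 2.00 and 2.94, and 2.34 over the whole table. The median fold enrichment was 2.66 against 2.58. A −log10 p of at least 3 was reached by 94 members (21.8%) and 377 of the others (20.6%), or 8.70 and 8.39 per Mb (ratio 1.04, interval 0.819 to 1.30). A fold enrichment of at least 3 was reached by 151 members (35.0%, interval 30.5 to 39.7%) and by 497 of the others (27.2%, 25.1 to 29.3%), with a ratio per Mb of 1.26 (interval 1.05 to 1.52), against 31.9% over all listed peaks. Fold enrichment has the background as its divisor, and the background was lower for the members. All peaks with 5 reads at the genome-wide background share a fold of 3.02, just above this cut. They made up 60 of the 151 members and 151 of the 497 others, so the ratio of 1.26 depends on where the cut falls. A fold enrichment of at least 4 was reached by 5 members (1.16%, interval 0.377 to 2.68%) and by 11 of the others (0.601%, 0.300 to 1.07%), against 0.887% over all listed peaks. With the genome size the authors used, the shares with a fold of at least 4 could not be told apart at these counts. Peak length was also similar, with medians of 200 and 204 bp, and 31.0% and 31.2% of the peaks had the minimum length of 161 bp. Neighbouring summits were closer than 1000 bp in 26 of 427 pairs within the clusters (6.09%) and in 102 of 1823 in the rest (5.60%).

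Because a background at the genome-wide level is the same for every such peak, the −log10 p of the 193 members there took few values. It was 1.37 for the 30 members with 3 reads, 2.11 for the 73 with 4, 2.94 for the 60 with 5 and 3.84 for the 21 with 6. The 7 members with 7 reads and the 1 with 8 share the value 4.81, since the p is computed from the scaled reads rounded down, and the 1 with 9 reads has 5.84. Members at neighbouring values are thus separated by 1 or 2 reads.

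Of the 432 members, 3 (0.694%, interval 0.143 to 2.02%) had a −log10 q above 0, that is a q under 1. In the rest of chromosome 19 there were also 3 such peaks (0.164%, 0.0338 to 0.478%), and the share over all listed peaks was 0.346%. The intervals of the clusters and the rest overlapped. The strongest member was in 19q13.31 from 44915252 to 44915738, 487 bp long. It had 48 ChIP reads at the summit (35.4 to 63.6 by an exact Poisson interval), or 41.5 once scaled, over 16 input reads at the same position. Its fold enrichment was 2.50, its −log10 p 7.32 and its −log10 q 1.58. No other peak listed on chromosome 19 had as many reads, the highest in the rest being 18. By the other measures the rest reached higher than any member, with a −log10 p of up to 8.28 and a fold enrichment of up to 5.70. The second strongest member was the neighbour of the first, from 44914833 to 44915006, with 245 bp between both. It had 15 reads (8.40 to 24.7), or 13.0 after scaling, over 2 input reads, a fold enrichment of 4.65, a −log10 p of 6.68 and a −log10 q of 1.08. The third lay in 19q13.42 to 19q13.43 from 57743435 to 57743740. It had 9 reads (4.12 to 17.1) over the genome-wide background, a fold enrichment of 4.98, the highest of the members, a −log10 p of 5.84 and a −log10 q of 0.444. The first pair stood on input reads of their own, and the third did not.

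The next peaks of each cluster were weaker and had a q of 1. In 19p12 the peak from 21505109 to 21505606 had 8 reads and a fold enrichment of 4.49, and that from 21712856 to 21713215 had 7 reads and a fold enrichment of 4.00. The 2 leading peaks of 19q13.12, from 37947531 to 37947717 and from 38273896 to 38274133, also had 7 reads each and a fold enrichment of 4.00. These 4 all had a −log10 p of 4.81 over the genome-wide background. Another peak of 19q13.12, from 38363358 to 38363745, tied with its 2 leading peaks in reads, fold enrichment and −log10 p, and came after them by position only. In 19q13.41 to 19q13.42, the leading peak from 53953345 to 53953542 had the same 7 reads and −log10 p, and the next, from 53736561 to 53736829, had 7 reads over a background of 0.805 and a −log10 p of 4.67. The second peak of 19q13.42 to 19q13.43, from 57266072 to 57266287, again had 7 reads and a −log10 p of 4.81. A summit of 7 reads has an exact interval of 2.81 to 14.4 reads, so the order of these peaks is not fixed by the data.

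The members with the most reads were mostly those with the most input. A summit of 10 reads or more was found for 7 members, over backgrounds of 2 to 16 reads, and for 60 of the other chromosome 19 peaks, over 0.966 to 7 reads. Besides the leading pair of 19q13.31 these were 2 peaks of 19q13.12, with 26 reads over 11 input reads (37787632 to 37787793) and 18 over 8 (37793947 to 37794418), 1 peak of 19p12 with 19 reads over 10 (20235965 to 20236171), another of 19q13.31 with 16 reads over 3.54 (44962997 to 44963236) and 1 of 19q13.42 to 19q13.43 with 10 reads over 3 (56850552 to 56850977). After scaling, the 4 members with 8 or more input reads had only 1.64 to 2.59 times the input at their summit. Their −log10 p ran from 1.57 to 7.32, and no peak in the rest of the chromosome had an input background of 8 or more. Whether such sites hold sequence present in more copies than in hg19 was not tested.

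**Figure D5:**
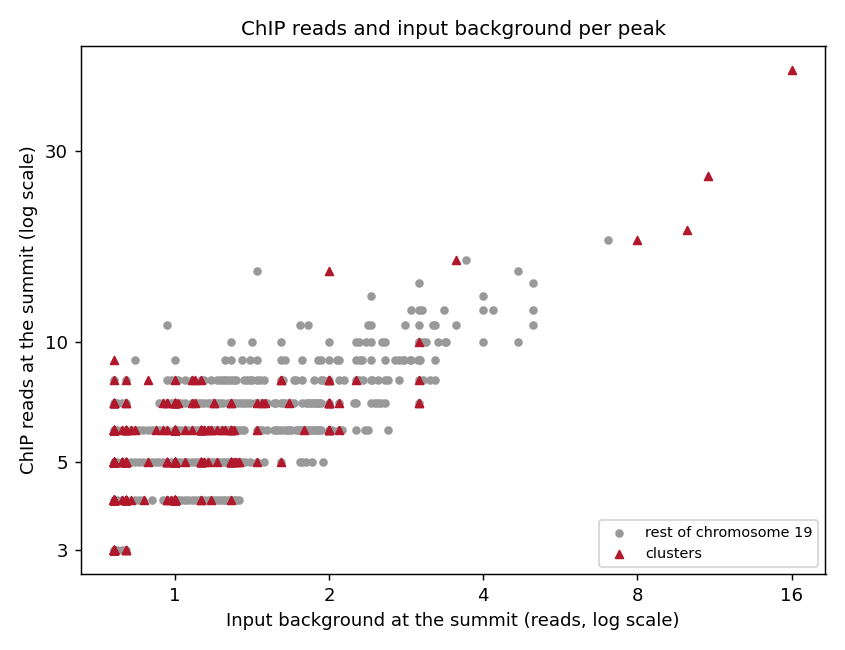
ChIP reads at the summit (y axis, log scale) against the input background of the peak (x axis, reads, log scale) for the members (red triangles) and the other chromosome 19 peaks (grey circles; 1 point may stand for several peaks). The 4 members at the upper right have 18 to 48 ChIP reads over 8 to 16 input reads, beyond the background of any other chromosome 19 peak.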

How the data were processed

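The data were the peak table of 1 TCF12 ChIP library called against 1 input library of Hep3B cells, assigned from their labels. Per the labels, the authors used Bowtie2 2.0 on hg19, marked duplicates with Picard 2.19.0 and called peaks with MACS2 2.1.2. The file header gives a p cutoff of 0.05, 1 tag kept per position, a fragment length of 161 bp and an effective genome size of 1870 Mb, the mouse preset, in place of 2700 Mb for human, which sets the genome-wide background at 0.763 in place of 0.528 reads. The deposited pileup is a signal, the ChIP reads at the summit scaled by 0.864 to the input. The fold enrichment is a ratio, and the −log10 p and −log10 q are also the authors' values. The header says that q is not calculated, but the column holds values, used as they stand.

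Reads were recovered as pileup over scale (whole within 0.02 for 100% of peaks), and the background from reads and fold enrichment. On chromosome 19 the −log10 of the Poisson p computed from these was within 1.23e-05 of the listed value. A background within 0.001 of the genome-wide level was counted as at that level. Exact Poisson, binomial and conditional ratio intervals (95%) cover counting error only and were tested on simulated data. Peaks of 1 library are not replicates, so no test was made. The alternatives changed how peaks are assigned, the edges, the comparison stretches, the thresholds and the genome size. Peaks were named by rule: the 2 largest −log10 p of each interval, every −log10 q above 0, the densest 100 kb and the longest peak-free stretch. The members with 10 reads or more were named after their values were seen. The intervals and measures were chosen with earlier results of these data known, and the split by background was added after seeing the data. The work was done in Python 3.11.15 with pandas 2.3.3, scipy 1.17.1, matplotlib 3.10.9 and numpy 2.4.6.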

Additional observations from a re-analysis of the deposited data

How the results depend on the processing

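The density ratio of 0.983 moved beyond its interval under 3 alternatives: it was 1.15 without 19p12, 0.821 without 19q13.42 to 19q13.43 and 1.26 for peaks with a fold enrichment of at least 3. The human genome size could not change this ratio, because the list of peaks was kept as called. Which peaks would be listed at that size was not tested. The ratio of peaks at the genome-wide background stayed above 1 in every alternative run for it, which did not include the human genome size. It was 2.12 and 1.48 without the same intervals. For a −log10 p of at least 3 it was 2.84, and without the stretch from the centromere to 19q13.12 it was 2.45. That of peaks above this background stayed below 1, at 0.839 and 0.606 without the same intervals and 0.841 for a fold enrichment of at least 3, where its interval reached 1.11, and 0.800 for a −log10 p of at least 3, where it reached 1.05. The share above this background was 68.1% for a −log10 p of at least 3 (88.3% in the rest) and 40.4% for a fold enrichment of at least 3 (60.8%). The share with 8 reads or more was 11.7% (23.3% in the rest) and 7.95% (16.1%) under these thresholds. The difference in median −log10 p, 0.01, was 0.14 for peaks with a −log10 p of at least 2 and 0.34 for at least 3. The share of members with a fold enrichment of at least 4 was at most 7.64% with the human genome size. It was not computed for the rest at that size, so whether both shares differ there was not tested. At a fold of 3 the members' share was 35.0% (27.2% in the rest) and at 5 it was 0%. Backgrounds at the genome-wide level could not be resolved for the human size, so the split by background was not run with it. Rules on overlap changed no value. The causes were not tested. No paired analysis was possible because there is 1 library per group. Depth limits single peaks, most of which rest on 3 to 5 reads.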

Other observations

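E proteins bind E-boxes, and TCF12 is known to bind the forms CAGCTG and CAGGTG. In RefSeq promoter windows of 300 bp (GRCh38.p14, 250 bp before and 50 bp after the start of the gene), 228 of the 262 zinc finger genes of chromosome 19 had a sequence. CAGCTG, which reads the same on both strands, was present in 39 of them (17.1%), against 16.3% of 957 other protein-coding genes of chromosome 19 and 17.7% of all 27305 promoters. CAGGTG on either strand was present in 33 (14.5%), against 21.8% and 20.6%. Either form was present in 65 (28.5%), against 34.6% and 34.3%. These are letters in a window and not sites, and no peak was placed on these promoters. The zinc finger genes were taken by symbol over the whole chromosome, inside and outside the clusters described here. No confidence interval was computed for these shares, so they do not describe the clusters alone.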
